A study of Homo sapiens with 8 samples.

Results

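The 10 genes described here encode the NF-kB transcription factor subunits (RELA, RELB, REL, NFKB1 and NFKB2), proteins of the IkB family that restrain or redirect them (NFKBIA, NFKBIE and NFKBIZ) and ubiquitin-system proteins of the same circuit (TNFAIP3, which encodes A20, and BIRC3, which encodes cIAP2). They were selected on their function and by gene symbol, with the siXBP1 and siNC values of these libraries already known, so their values in that comparison are a description and support nothing by themselves. All 10 were among the 18555 genes of the table and all 10 were among the 14337 genes tested. RNA-seq was made from 6 libraries of cells labelled HepG2, a line from a human liver tumour, 3 transfected with a control siRNA (siNC, labelled Allstar) and 3 with an siRNA against XBP1 (siXBP1). Both groups received 30 nM thapsigargin, an inhibitor of the calcium pump of the endoplasmic reticulum, for 3 hours, 2 days after transfection. No RNA-seq library without thapsigargin was analysed here, so the comparison concerns less XBP1 mRNA in stressed cells. The question of the series is how XBP1s, the spliced form of the stress factor XBP1, acts in liver cancer cells.

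NF-kB dimers are held in the cytoplasm by IkB proteins until a kinase complex (IKK) marks the IkB protein for degradation, which frees the dimer to enter the nucleus. Many genes that NF-kB turns on encode its own brakes, among them NFKBIA and TNFAIP3, so that transcripts of the feedback inhibitors are widely used as a readout of the pathway. Stress of the endoplasmic reticulum is known to feed into NF-kB through the sensors IRE1 and PERK. NF-kB activity depends on protein location and degradation, which mRNA counts do not measure.

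Library totals lay between 38209972 and 38890070 counts. XBP1 mRNA was lower in every siXBP1 library, at 518 ± 29.5 CPM in siNC and 288 ± 11.4 CPM in siXBP1 (SD, n = 3 each; CPM is the count scaled by the library total). Its log2 fold change was -0.84 (SE 0.08, edgeR adjusted p = 0.0331), and the call ended when siNC replicate 2 or 3 or siXBP1 replicate 1 or 2 was left out (adjusted p from 0.175 to 0.475). The first principal component of log2 CPM over 11528 genes held 59.1% of the variance and set siNC replicate 1 (score 0.643) and siXBP1 replicate 3 (score -0.648) apart from the other 4 libraries (scores from -0.29 to 0.239). These end libraries belong to different groups, so each fitted difference of the 10 genes is also given without both of them. Of 16 hepatocyte markers, 10 were among the rows analysed. Defining ones lay near the detection floor of 3 counts (0.0771 to 0.0785 CPM): AFP reached at most 0.155 CPM, TF 0.104 CPM, SERPINA1 0.416 CPM and HNF4A 0.523 CPM in any library, so the cells are called by their label only. Of 10 leukocyte markers, 6 were among the rows analysed, with a summed level of 38.7 to 45.9 CPM in siNC and 41.1 to 44.9 CPM in siXBP1, nearly all of it from CD68. The pan-leukocyte marker PTPRC reached at most 0.623 CPM and SPI1, a factor of myeloid and B cells, at most 0.208 CPM. Fibroblast markers were higher: 7 of 8 were among the rows analysed, summing to 323 to 340 CPM in siNC and 346 to 353 CPM in siXBP1, chiefly LUM (136 CPM on average) and COL3A1 (129 CPM), with COL1A2 and THY1 near the floor (0.0174 and 0.0517 CPM). Endothelial markers (5 of 6) summed to 15.7 to 18.7 CPM in siNC and 14.3 to 16.7 CPM in siXBP1. The part of other cell types in the results was not tested. In bulk RNA, fewer cells of a type and less RNA per cell cannot be told apart. Separate cultures are not stated for the replicates, so the p-values reflect how far these samples vary, and that variation may be technical.

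Sequence context is shown first because these genes are both parts and, for several, textbook targets of NF-kB. RefSeq promoter windows (GRCh38.p14, as for all coordinates given) were found for 8 of the 10 genes, at 13 annotated starts, and the 250 bases before each start were searched on both strands. The NF-kB consensus motif was present before at least 1 start of 7 of the 8 genes (TNFAIP3, NFKBIA, NFKBIZ, NFKB1, NFKB2, REL and BIRC3, but not RELA) and at 9 of the 13 starts. Over all 35116 windows of the same length it was present in 9.96%, and 15.8% of the 11290 tested genes with a window had it before at least 1 start. The genes described here had 1.62 starts each on average and the tested genes 1.45. Among the fixed list of other NF-kB targets, 12 of the 22 genes with a window had the motif. A match is a description of the letters and not a measured binding site. The element TGACGTGG, a form bound by unfolded protein response factors, was present at 0 of the 13 starts (0.612% of all windows), and the AP-1 element TGANTCA at 0 of the 13 (6.57% of all windows). RELB and NFKBIE are named only.

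The 250 bases before the NFKBIA start (chr14:35404750-35404999, minus strand) and before the upstream start of NFKB1 (chr4:102501109-102501358, plus strand) are printed whole because each holds 1 match (positions -81 to -72 from the start in NFKBIA, -49 to -40 in NFKB1). Sequences read 5′ to 3′ along the gene, with the matches in capitals.
NFKBIA: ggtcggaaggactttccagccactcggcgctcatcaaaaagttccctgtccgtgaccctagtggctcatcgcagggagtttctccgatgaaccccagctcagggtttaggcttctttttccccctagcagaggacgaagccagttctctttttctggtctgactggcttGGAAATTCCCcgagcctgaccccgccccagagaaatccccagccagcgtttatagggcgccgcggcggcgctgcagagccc
NFKB1: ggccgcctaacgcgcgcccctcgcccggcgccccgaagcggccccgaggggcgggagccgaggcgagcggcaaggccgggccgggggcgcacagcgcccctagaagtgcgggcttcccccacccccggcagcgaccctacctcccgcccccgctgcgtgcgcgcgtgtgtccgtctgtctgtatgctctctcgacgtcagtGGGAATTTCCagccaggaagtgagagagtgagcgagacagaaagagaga

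Windows of 30 bases are enough to compare the matches of the other genes. TNFAIP3 has a pair of matches side by side before an internal start (chr6:137867188-137867217, positions -67 to -46). REL has overlapping matches (chr2:60881518-60881547, positions -47 to -37), as does an internal start of NFKB2 (chr10:102394462-102394491, positions -107 to -97). NFKBIZ has a match at positions -223 to -214 from its upstream start (chr3:101827757-101827786), with the same 10 bases as NFKB1. BIRC3 has matches at positions -199 to -190 and -135 to -126 (chr11:102317275-102317304 and chr11:102317339-102317368). Further matches are not printed. NFKB2 has one at positions -78 to -69 of the same start, and others at -176 to -167 and -21 to -12 of another internal start. NFKBIZ has one at -239 to -230 of an internal start. All of these genes lie on the plus strand.
TNFAIP3: ctttGGAAAGTCCCgtGGAAATCCCCgggc
REL: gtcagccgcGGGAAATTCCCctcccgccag
NFKB2: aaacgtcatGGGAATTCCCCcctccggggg
NFKBIZ: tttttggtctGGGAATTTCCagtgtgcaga
BIRC3 distal: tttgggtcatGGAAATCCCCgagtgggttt
BIRC3 proximal: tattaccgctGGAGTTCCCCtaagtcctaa

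In siXBP1 every one of the 10 fitted differences was above 0, but the sizes were uneven: near 0.49 on the log2 scale for TNFAIP3 and NFKBIZ, between 0.35 and 0.36 for BIRC3 and REL, and from 0.03 to 0.20 for the other 6. The median log2 fold change was 0.18, beside 0.01 over all genes tested, of which 52.8% had estimates above 0. edgeR's quasi-likelihood test with Benjamini-Hochberg adjustment over all genes called 0 of the 10, as it called 0.00697% of all genes, a single gene, XBP1. At an unadjusted p under 0.05 edgeR gave 2 of the 10 (TNFAIP3 and NFKBIZ), where it gave 3.61% of all genes. At an adjusted p under 0.05 limma-voom called 0 of the 10. DESeq2 called 1 at that adjusted threshold, TNFAIP3 (adjusted p = 0.00793), where it called 0.0505% of genes as higher. In CPM, 3 of the 10 (TNFAIP3, NFKBIZ and NFKB1) had every siXBP1 library above every siNC library, a pattern seen in 5.01% of the genes tested. The contrast was known when the genes were selected, so these counts are not evidence about them as a group.

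**Figure D1:**
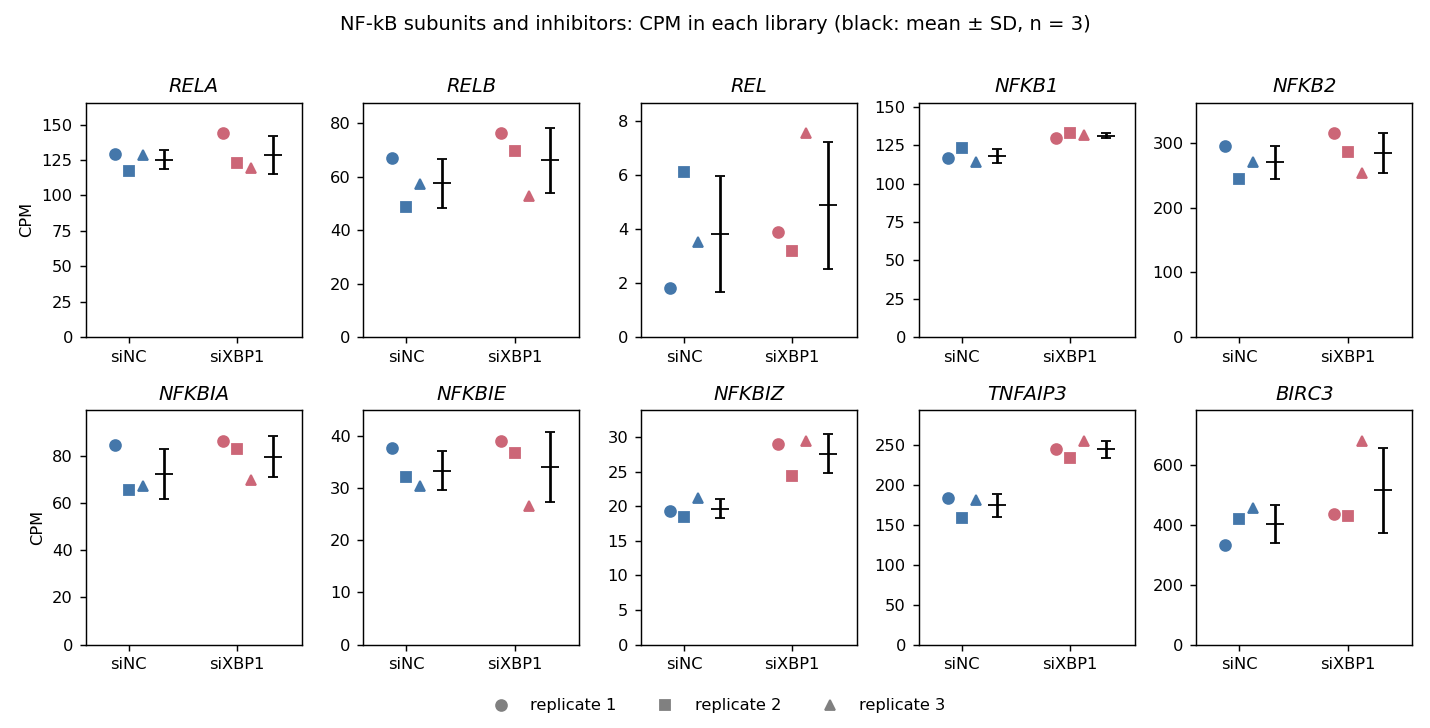
Level of each gene in CPM (y axis, linear from 0, a separate scale per gene) in the siNC and siXBP1 libraries (x axis), with the replicate shown by the marker shape and the mean ± SD (n = 3) in black. TNFAIP3, NFKBIZ and NFKB1 show no overlap between groups; in REL and BIRC3 siNC replicate 1 is the lowest and siXBP1 replicate 3 the highest library.

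RELA (gene ID 5970, chr11:65653601-65663857) encodes the p65 subunit, whose dimer with p50 is the main activating form of the canonical pathway. It had 130, 118 and 129 CPM in siNC replicates 1 to 3 and 144, 123 and 119 CPM in siXBP1 replicates 1 to 3. The groups overlapped, with siXBP1 replicate 1 alone above all siNC libraries. The log2 fold change was 0.04 (SE 0.10, 95% interval -0.19 to 0.27), and with 1 library left out it ranged from -0.04 to 0.08, so no direction was set. Without both end libraries it was 0.12. RELA overlaps the divergent noncoding gene RELA-DT by 852 bases, and the strand setting of the counting is not given in the sources used here.

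NFKB1 (gene ID 4790, chr4:102501359-102617302) encodes p105, which is processed to the p50 subunit and in its full form also holds other subunits back. Its level was 117, 123 and 114 CPM in siNC and 130, 133 and 132 CPM in siXBP1. The groups did not overlap, although the gap was small, and the siXBP1 libraries lay close together (131 ± 1.57 CPM, SD, n = 3, against 118 ± 4.70 CPM in siNC). This gave a log2 fold change of 0.16 (SE 0.09, interval -0.04 to 0.35), with values from 0.12 to 0.18 when 1 library was left out and 0.15 without both end libraries. NFKB1 overlaps the noncoding genes NFKB1-AS1 by 1128 bases, LOC124900742 by 6200 and LOC105377347 by 19648.

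The other precursor subunit gene, NFKB2 (gene ID 4791, chr10:102394110-102402529), encodes p100, which is cut to p52 in the non-canonical pathway and is itself induced by NF-kB. It had 296, 245 and 271 CPM in siNC and 315, 286 and 253 CPM in siXBP1. siNC replicate 1 lay above siXBP1 replicates 2 and 3, and the groups overlapped across most of their range. The estimate was 0.08 on the log2 scale (SE 0.11, interval -0.17 to 0.32). It was 0.0005 without siXBP1 replicate 1, 0.0006 without siNC replicate 2, 0.14 without either siNC replicate 1 or siXBP1 replicate 3, and 0.23 without both of the last.

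RELB (gene ID 5971, chr19:45001464-45038192), the partner of p52, had 67.0, 48.7 and 57.2 CPM in siNC and 76.2, 69.6 and 52.6 CPM in siXBP1. siXBP1 replicates 1 and 2 were the highest libraries and siXBP1 replicate 3 lay among the siNC libraries. A log2 fold change of 0.20 was fitted (SE 0.16, interval -0.16 to 0.56). Leaving out siNC replicate 2 gave 0.08 and siXBP1 replicate 1 0.09, and leaving out siNC replicate 1 or siXBP1 replicate 3 gave 0.32 or 0.33. It became 0.47 without siNC replicate 1 and siXBP1 replicate 3 (edgeR adjusted p = 0.00366). The libraries left out were chosen by component scores from these same counts, so that adjusted p may be too small.

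REL (gene ID 5966, chr2:60881574-60931612) encodes c-Rel, a subunit best known from lymphocytes. It was counted 70, 237 and 136 times in siNC and 150, 123 and 288 times in siXBP1, or 1.80 to 6.10 CPM and 3.17 to 7.54 CPM. The range between libraries was 4.19-fold. Poisson intervals (95%, counting error only) were 54.6 to 88.4 counts in siNC replicate 1 and 256 to 323 in siXBP1 replicate 3. These intervals lay far apart, so the range was wider than the counting error they describe. They may be too narrow, because both mates of a pair may be counted. The groups overlapped over most of the range between libraries. The log2 fold change of 0.35 (SE 0.43, interval -0.62 to 1.32) therefore gives no direction, and it was -0.44 without the end libraries and -0.12 without siXBP1 replicate 3.

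NFKBIA (gene ID 4792, chr14:35401513-35404749) encodes IkBα, the inhibitor that is degraded when the canonical pathway is switched on and then made again from NF-kB-induced mRNA. Its levels were 84.7, 65.5 and 67.5 CPM in siNC and 86.5, 83.1 and 69.9 CPM in siXBP1. siNC replicate 1 lay with the 2 higher siXBP1 libraries, and siXBP1 replicate 3 with the other siNC libraries. Over all libraries the log2 fold change was 0.14 (SE 0.13, interval -0.16 to 0.44). Without these 2 libraries it was 0.36 (edgeR adjusted p = 0.0186), more than 1.5 times the value over all libraries. That adjusted p may be too small, because the libraries left out were chosen from the same counts. The log2 fold change was 0.06 without siNC replicate 2 and 0.08 without siNC replicate 3 or siXBP1 replicate 1. Without siNC replicate 1 alone it was 0.26.

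NFKBIE (gene ID 4794, chr6:44258166-44265551) encodes IkBε, a slower inhibitor of the same kind. It had 37.7, 32.1 and 30.4 CPM in siNC and 39.1, 36.8 and 26.5 CPM in siXBP1. The siXBP1 group held both the highest and the lowest library, and the log2 fold change was 0.03 (SE 0.16, interval -0.33 to 0.39). Leaving out 1 library at a time gave values from -0.07 to 0.17, below 0 in 4 of 6 cases, and without both end libraries the value was 0.28.

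NFKBIZ (gene ID 64332, chr3:101827990-101861022) encodes IkBζ, an inducible nuclear member of the family that helps switch on a second wave of genes, IL6 among them. It had 19.3, 18.5 and 21.2 CPM in siNC and 29.1, 24.4 and 29.5 CPM in siXBP1. All siXBP1 libraries were above all siNC libraries, and their mean was 141% of that in siNC. The log2 fold change was 0.49 (SE 0.12, interval 0.22 to 0.76, edgeR unadjusted p = 0.00252, adjusted p = 1), between 0.43 and 0.56 with 1 library left out and 0.43 without both end libraries. NFKBIZ overlaps the gene NXPE3 by 242 bases at its upstream start. NXPE3 had a similar level (19.6 ± 3.66 CPM in siNC and 19.7 ± 0.950 CPM in siXBP1, SD, n = 3 each), overlapping groups and a log2 fold change of 0.01 (SE 0.15). How the authors' counting divided reads between these genes is not given in the sources used here.

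TNFAIP3 (gene ID 7128, chr6:137866349-137883312) encodes A20, an enzyme that edits ubiquitin chains on signalling proteins upstream of IKK and so ends the signal. Its levels were 183, 158 and 181 CPM in siNC and 245, 234 and 255 CPM in siXBP1. The lowest siXBP1 library lay above the highest siNC library by more than the SD of either group (14.2 CPM in siNC and 10.6 CPM in siXBP1, n = 3 each). On average siXBP1 reached 141% of siNC. The log2 fold change was 0.49 (SE 0.09, interval 0.29 to 0.70, edgeR unadjusted p = 0.000373, adjusted p = 0.594), and it stayed between 0.42 and 0.53 with 1 library left out and was 0.50 without both end libraries. WAKMAR2, a noncoding gene that overlaps its start, had 10 to 36 counts per library against 6128 to 9733 for TNFAIP3.

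BIRC3 (gene ID 330, chr11:102317484-102339403) encodes cIAP2, a ubiquitin ligase that attaches chains to signalling proteins below the TNF receptor and, with cIAP1, keeps the kinase NIK low. It had 332, 418 and 454 CPM in siNC and 435, 429 and 679 CPM in siXBP1. siXBP1 replicate 3 stood far above all other libraries and siNC replicate 1 below them, while the remaining 4 lay between 418 and 454 CPM with no separation of the groups. The log2 fold change of 0.36 (SE 0.18, interval -0.05 to 0.76) was 0.10 without siXBP1 replicate 3 and -0.01 without both end libraries. BIRC2, which encodes cIAP1 and lies beside BIRC3, showed the same extremes, at 134 CPM in siNC replicate 1 and 217 CPM in siXBP1 replicate 3.

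**Figure D2:**
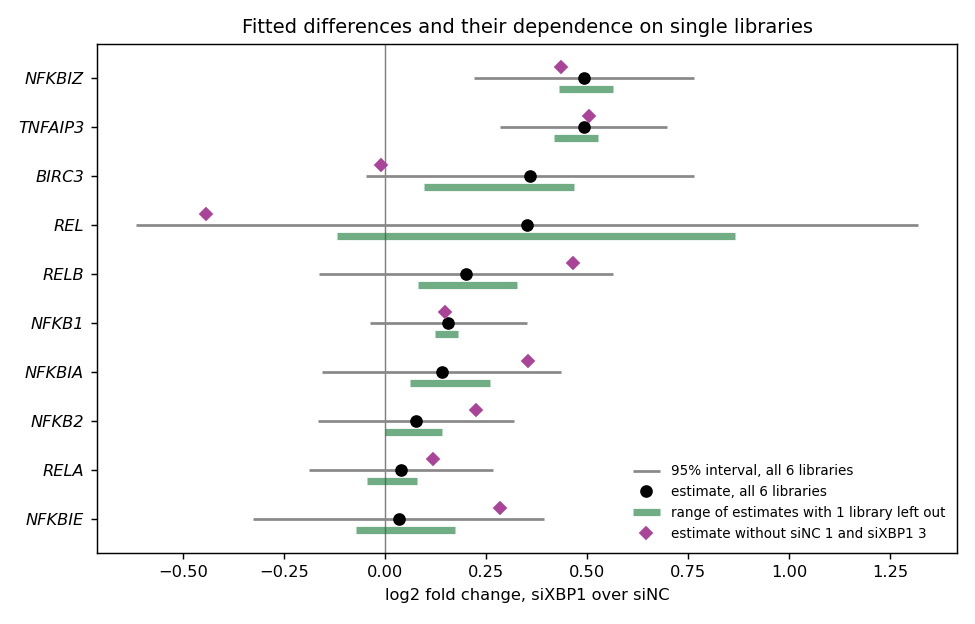
Log2 fold change of each gene, siXBP1 over siNC (x axis), with the 95% interval over all 6 libraries in grey, the range with 1 library left out in green and the value without siNC replicate 1 and siXBP1 replicate 3 as a diamond. TNFAIP3 (0.50) and NFKBIZ (0.43) keep their size without these libraries, RELB moves to 0.47 and NFKBIA to 0.36, and BIRC3 (-0.01) and REL (-0.44) fall below 0.

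The 10 genes followed the first component in different ways. Over the 6 libraries, log2 CPM correlated with the component score at r = 0.89 for NFKBIE, 0.81 for NFKB2, 0.78 for NFKBIA, 0.76 for RELB and 0.61 for RELA. It ran the opposite way for REL (r = -0.95) and BIRC3 (r = -0.88), and it was weak for NFKB1 (-0.35), NFKBIZ (-0.31) and TNFAIP3 (-0.15). Such values are common in these data, since 28.4% of genes tested had r over 0.6 and 28.6% had r under -0.6, with a median absolute r of 0.678, and the component was computed from the same libraries. The 3 genes with weak correlation were the 3 whose groups did not overlap. The ends of the component lie in different groups, so genes that follow it closely tend to overlap. The match is therefore no separate result. The part of whatever the component reflects in these values was not tested.

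**Figure D3:**
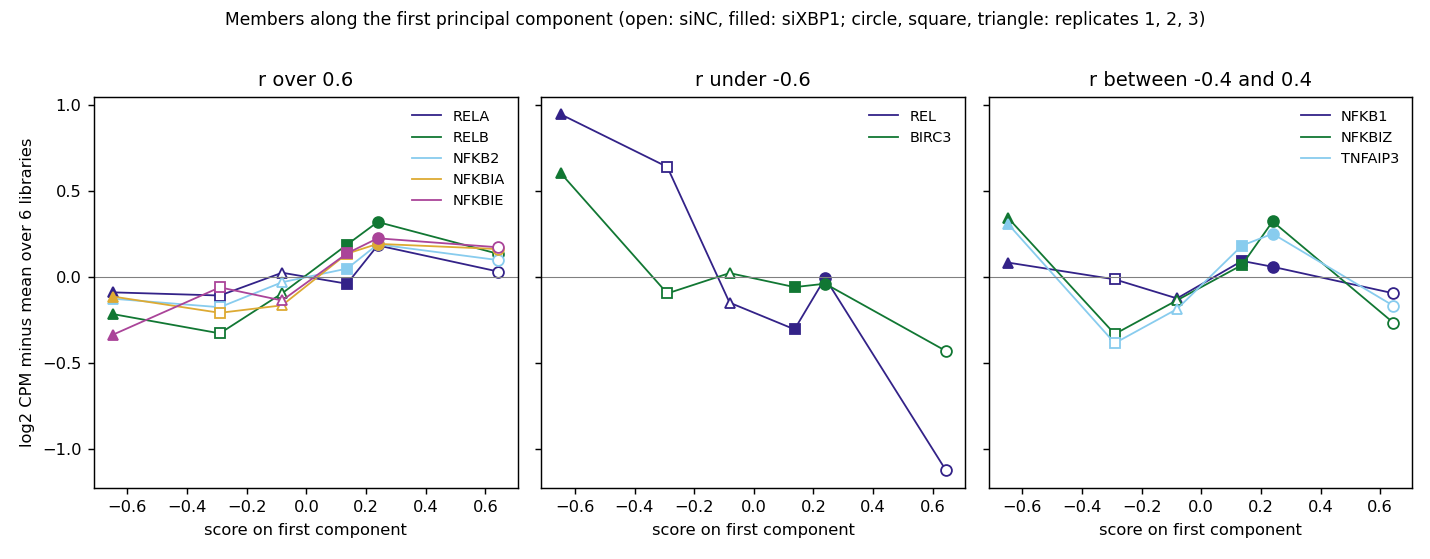
Log2 CPM of each gene minus its mean over the 6 libraries (y axis) against the score of the library on the first component (x axis), open for siNC and filled for siXBP1. RELA, RELB, NFKB2, NFKBIA and NFKBIE run upwards, REL and BIRC3 downwards, and in NFKB1, NFKBIZ and TNFAIP3 the filled points lie above the open ones.

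RELB and NFKB2, the partners of the non-canonical pathway, had the highest pairwise correlation of log2 CPM (r = 0.98, n = 6 libraries), followed by NFKBIZ and TNFAIP3 (0.96), RELB and NFKBIA (0.95) and NFKB2 and NFKBIA (0.91). After group means were removed, RELB and NFKB2 kept 0.99 and RELB and NFKBIA 0.94, whereas NFKBIZ and TNFAIP3 had 0.70. NFKB1 correlated positively with TNFAIP3 (0.77) and NFKBIZ (0.74) over all libraries, but negatively within groups (-0.84 and -0.64). The most negative pair was BIRC3 and NFKBIE (-0.80, and -0.99 within groups). All of these libraries share the first component, and no test was made.

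With the component score as a covariate, edgeR called 3 of the 10 as higher, where it called 0.711% of all genes as higher. They were TNFAIP3 (log2 fold change 0.50, SE 0.06, adjusted p = 5.91e-05), NFKBIZ (0.48, SE 0.10, adjusted p = 0.00929) and RELB (0.29, SE 0.07, adjusted p = 0.0362). NFKBIA (0.21, SE 0.06, adjusted p = 0.122) and BIRC3 (0.23, SE 0.07, adjusted p = 0.106) did not pass. The score comes from the same counts and is taken as known, so these adjusted p-values may be too small. Without both end libraries, which left 2 libraries per group, edgeR called 4 of the 10 as higher (TNFAIP3, RELB, NFKBIA and NFKBIZ). It called 1.45% of all genes as higher in that fit. The end libraries were chosen by scores from the same counts, so the adjusted p-values without them may also be too small. Leaving them out also tends to raise estimates of genes that rise with the score and to lower those of genes that fall.

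Genes whose levels ran most like those of TNFAIP3 over the 6 libraries were PLCG2 (r = 0.99), CXCL8 (0.99), STAT3 (0.99), TNFRSF21 (0.99) and FOXC1 (0.97), out of 9597 genes averaging 10 CPM or more. These 5 were picked as the highest of all those genes over only 6 libraries, and 64 genes exceeded 0.9. For NFKBIA they were ISG20, RUSC1, PTGES, COL3A1 and H1-2 (r from 0.994 to 0.999), with 243 genes over 0.9. No further gene of the 10 was in either set of 5.

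The other genes of the pathway were taken from fixed lists by role. Ligands start the signal at the cell surface. Of 11, 6 were among the rows analysed and 4 were tested; all 4 had estimates above 0 (median log2 fold change 0.47) and 0 were called by edgeR. IL1A, an alarm cytokine, had 18.5, 16.9 and 18.3 CPM in siNC and 19.5, 21.6 and 25.3 CPM in siXBP1, with no overlap (log2 fold change 0.31, SE 0.13). IL1B had 7.46, 4.86 and 6.47 CPM in siNC and 10.0, 7.07 and 8.35 CPM in siXBP1, with overlap (0.44, SE 0.20). TNFSF12, the ligand TWEAK, was low (1.99 ± 0.456 CPM in siNC and 2.82 ± 0.825 CPM in siXBP1, SD, n = 3 each). Its groups overlapped and its log2 fold change was 0.50 (SE 0.30). TNFSF14 was lower still (0.465 ± 0.189 CPM in siNC and 0.666 ± 0.27 CPM in siXBP1), with overlap (0.52, SE 0.50). The median of the ligands thus rests in part on these low and imprecise genes.

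Receptors, adaptors and kinases centred near 0. Of 10 receptors tested, 6 had estimates above and 4 below 0 (median 0.04). Fitted differences were -0.03 (interval -0.23 to 0.17) for the TNF receptor TNFRSF1A, 0.01 (-0.27 to 0.29) for the lymphotoxin receptor LTBR and -0.21 (-0.58 to 0.16) for the TWEAK receptor TNFRSF12A. Of 14 adaptors and ubiquitin ligases, 10 were above and 4 below (median 0.04). The groups did not overlap, with siXBP1 higher, for 3 of them (TRAF3, TRAF6 and IRAK2), beside 5.01% of all genes tested. IRAK2, a kinase that prolongs signals from interleukin-1 and Toll-like receptors, had 139, 122 and 132 CPM in siNC and 177, 161 and 164 CPM in siXBP1 (log2 fold change 0.35, SE 0.09), whereas IRAK1 had -0.21 (SE 0.11) with overlapping groups. Of 14 genes of the IKK complex, its activators and the linear ubiquitin ligase, 8 were above and 6 below (median 0.01), with RIPK1 at 0.05 (interval -0.18 to 0.28). TAB2 (0.16) and TAB3 (0.15) followed the component closely (r = -0.965 and -0.998). Over these 3 lists edgeR called 0 genes. With the component score as a covariate it called 1, IRAK2 (0.38, SE 0.06, adjusted p = 0.00102). In that fit 0.711% of all genes were called as higher.

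Further inhibitors and deubiquitinases had 10 estimates above and 5 below 0 among 15 tested (median 0.05). TNIP1, which works with A20, had 262, 202 and 237 CPM in siNC and 290, 277 and 244 CPM in siXBP1, with overlap (log2 fold change 0.21, SE 0.12). TAX1BP1, another A20 partner, had 0.14 (interval -0.17 to 0.45), and OTULIN, which removes linear ubiquitin chains, had 0.05 (-0.26 to 0.37). edgeR called 0 of the 15, and the groups overlapped for all 15. With the component score as a covariate edgeR called 1, TNIP1 (0.27, SE 0.06, adjusted p = 0.0161). In that fit 0.711% of all genes were called as higher.

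Targets outside the selected genes had 17 estimates above and 4 below 0 among 21 tested (median 0.27), and the groups did not overlap, with siXBP1 higher, for 8 of them (CXCL2, CXCL8, CCL2, CCL5, CCL20, IL6, SOD2 and PTGS2), beside 5.01% of all genes tested. edgeR called 0 of the 21; with the component score as a covariate it called 7 as higher, where it called 0.711% of all genes as higher. CCL5, a chemokine, had 385, 333 and 342 CPM in siNC and 460, 458 and 395 CPM in siXBP1 (log2 fold change 0.31, SE 0.10). SOD2, the mitochondrial superoxide dismutase, had 300, 316 and 315 CPM in siNC and 380, 376 and 455 CPM in siXBP1 (0.38, SE 0.10). TNFAIP2 had 387, 303 and 364 CPM in siNC and 435, 399 and 356 CPM in siXBP1, with overlap (0.18, SE 0.11). The medians of the lists are descriptions, and the difference between targets and upstream genes was not tested.

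**Figure D4:**
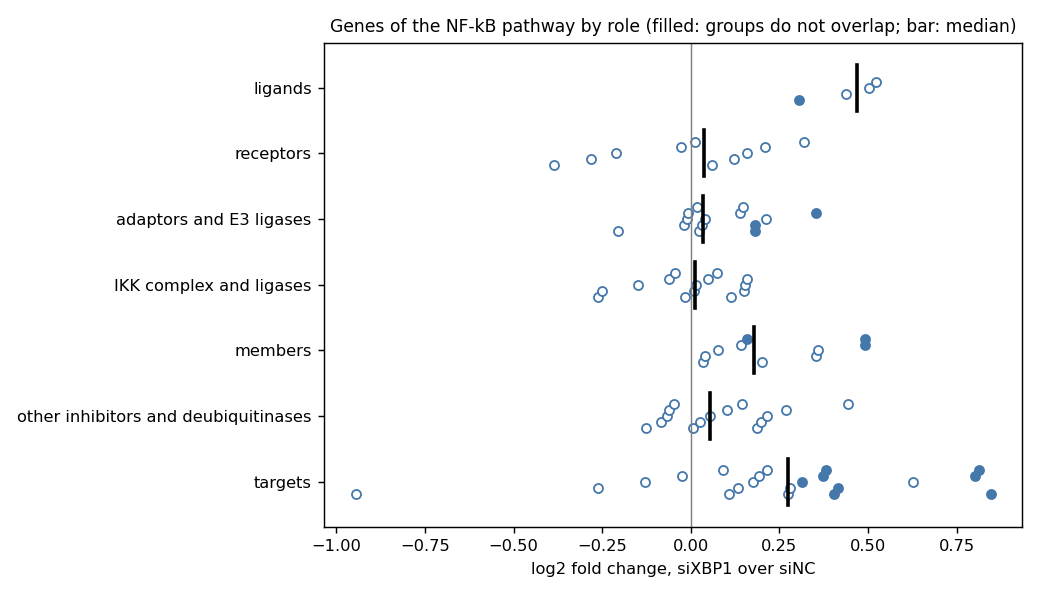
Log2 fold change, siXBP1 over siNC (x axis), of each tested gene of the NF-kB pathway, by role (y axis), with the median of each list as a bar. Filled points are genes whose siNC and siXBP1 libraries do not overlap in CPM: 8 of 21 targets, 3 of the 10 selected genes (members), 3 of 14 adaptors and 1 of 4 ligands. Among all genes tested, 5.01% had every siXBP1 library above every siNC library.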

How the data were processed

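The authors deposited raw gene counts for 6 RNA-seq libraries; per the submitters' processing notes, reads were processed with STAR 2.5.2a, featureCounts 1.5.0 (Subread) and hg38, and per the labels' protocols libraries came from a stranded TruSeq kit. The 2 XBP1s ChIP-seq samples were not analysed here. RefSeq names (GRCh38.p14) matched 18526 of 18555 gene IDs. Even numbers made up 75.8% to 80.5% of counts from 1 to 40, so both mates of a pair may be counted; intervals and floors cover counting error only.

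Genes were filtered with filterByExpr, normalized with TMM and tested across the whole table with edgeR 4.0.16 (R 4.3.3), two-sided, group only, 4 residual degrees of freedom, threshold 0.05 on Benjamini-Hochberg values. Alternatives were other scalings, filters and thresholds, DESeq2 1.42.0, limma 3.58.1 (voom), the replicate block, halved counts, the first-component score (log2 CPM with a pseudocount of 0.5, genes averaging 100 counts or more) as a covariate, and libraries left out. The procedure was tested on simulated data. Replicates differed by more than sampling noise. Correlations are Pearson's, on log2 CPM.

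The genes, pathway lists and alternatives were chosen with earlier results of these data known. Named genes were the 10, XBP1, the 3 genes with the highest mean CPM of each pathway list, any gene of those lists called by edgeR, and the 5 genes most correlated with TNFAIP3 and NFKBIA. Genes named because their groups did not overlap, and BIRC2, NXPE3 and WAKMAR2 for position, were added after their values were seen. So were TNFSF14, as the remaining tested ligand, and IRF1, for its call with the component score as a covariate. One marker gene is not reported here.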

Additional observations from a re-analysis of the deposited data

How the results depend on the processing

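Of 170 fitted differences of the 10 genes under other settings, 153 kept their direction and their side of the threshold, 8 passed it and 9 changed sign. The number of genes called, 1 with all libraries, was 0 with upper-quartile factors (XBP1 adjusted p = 0.0546) and at an adjusted p under 0.01, 16 with DESeq2, 172 with the component score as a covariate, 702 without both end libraries, and 0 to 1 with 1 library left out. XBP1 then had adjusted p = 0.175 and 0.213 with siNC replicate 2 or 3 left out, and 0.475 and 0.284 with siXBP1 replicate 1 or 2 left out. Of the 10 genes, DESeq2 called 1, the covariate fit 3 and the fit without both end libraries 4; the other settings called 0. The cause was not tested. Sign changes were seen without both end libraries for REL (-0.44) and BIRC3 (-0.0087), and with 1 library left out for RELA (-0.044 to 0.0802), NFKBIE (-0.0715 to 0.172) and REL (-0.12 to 0.87). The median of the 10 lay between 0.13 and 0.26 under every setting.

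Same-numbered replicates did not all deviate together (correlations of 0.60, -0.36 and 0.43), so the numbers were not taken as pairs. With the replicate block edgeR called 1 gene and 0 of the 10, with TNFAIP3 at 0.49 (adjusted p = 0.316).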
